A study of Mus musculus with 6 samples.

Results

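The genes described here are 8 noncoding RNAs of the brain: Malat1, Neat1, Miat, Snhg11, Sox2ot, Pantr1, Rmst and Dlx6os1. They were taken by symbol from a table of 55416 mouse genes, and each matched 1 row. Long noncoding RNAs are long transcripts that are not known to be translated, and many stay in the nucleus. Malat1 collects in nuclear speckles, stores of splicing factors, and Neat1 is the scaffold on which paraspeckles, another kind of nuclear body, are built. Miat is a nuclear RNA of neurons that binds splicing factors, while Sox2ot, Pantr1 and Dlx6os1 are transcribed beside genes of transcription factors that set neural cell fate. GENCODE M21 places 7 of the 8 among its long noncoding genes and annotates Snhg11, a host of small nucleolar RNAs, as protein coding.

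The RNA came from cultured primary neurons of wild-type mice, cells prepared from the brain and kept in a dish, which were infected with adeno-associated virus, AAV. The virus of 3 libraries expressed miR-9-3p under hsyn, the usual name of the human synapsin promoter, which drives expression in neurons. The 3 control libraries are labelled AAV-scramble in titles and treatment fields and AAV-hsyn-mCherry in the protocol, and the labels do not resolve this. Strain, age and sex of the mice are not stated, nor whether replicate libraries stem from different cultures, so p-values cover only the spread among these libraries, and that spread may be technical. Values are FPKM (fragments scaled to transcript length and sequencing depth), so levels of different genes can be compared per length. Depth recovered from the values was 16001205 to 17936453 reads per library.

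All 6 libraries hold transcripts of lung cells, in amounts that differ between replicates. Scgb1a1, a club cell secretoglobin of the airways, had 4871, 1791 and 1131 FPKM with miR-9-3p AAV (libraries 1, 2 and 3), against 3589, 4871 and 16310 FPKM with control AAV (libraries 1, 2 and 3). The median level of 10 genes of alveolar type 2 cells, called the lung level below, was 3.2, 1.17 and 1 times the lowest library in miR-9-3p AAV and 2.35, 3.21 and 10.8 times in control AAV. By the ratio of the airway gene Bpifa1 to Scgb1a1 the libraries form 2 sets, one of miR-9-3p AAV library 1 with control AAV libraries 2 and 3, the other of miR-9-3p AAV libraries 2 and 3 with control AAV library 1. All 7 neuron markers were tested, and their summed level ran from 1102 to 1408 FPKM in miR-9-3p AAV and from 761 to 1269 FPKM in control AAV. The 6 astrocyte markers summed to between 283 and 308 FPKM in miR-9-3p AAV and between 386 and 450 FPKM in control AAV. They did not move together. Means of Gfap, Aqp4, Aldh1l1 and Aldoc were lower in miR-9-3p AAV. Those of Slc1a3 (82.6 against 75.3 FPKM) and Slc1a2 (41.0 against 35.2 FPKM) were higher than in control AAV. The 6 progenitor markers summed to between 636 and 645 FPKM in miR-9-3p AAV and between 907 and 1071 FPKM in control AAV. Most of that sum was Fabp7, with means of 501 FPKM in miR-9-3p AAV and 825 FPKM in control AAV. Nes and Vim were also lower in miR-9-3p AAV, while the groups overlapped for Sox2, Pax6 and Hes5. In bulk RNA, fewer cells of a type and less RNA per cell cannot be told apart.

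A microRNA strand finds RNAs mainly through its seed, bases 2 to 8. The mature strands of the miR-9 hairpin (RefSeq, GRCm38.p6) are shown because the virus delivers the first of them, with the seed in capitals. Both strands are the same at all 3 mouse loci, Mir9-1, Mir9-2 and Mir9-3.
miR-9-3p: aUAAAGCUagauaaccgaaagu
miR-9-5p: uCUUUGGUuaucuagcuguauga

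A seed match is the complement of bases 2 to 8, or of bases 2 to 7 followed by A. Malat1 had 4 miR-9-3p matches in its longest transcript of 6983 bases, which is 0.573 matches per kilobase. Over the longest transcripts of 13117 long noncoding genes the rate was 0.125 per kilobase. Of 925 other long noncoding RNAs between 0.5 and 2 times the length of Malat1, 43.1% had at least 1 match and 0.54% had 4 or more. The sites lie on the minus strand of chromosome 19 (GRCm38, from the GENCODE M21 transcripts), and capitals mark the bases that complement the seed, with the A opposite base 1 where present.
Malat1, chr19:5795998-5796005: tggcctttccctAGCTTTAAaaaaaaaa
Malat1, chr19:5797499-5797506: atggctctctgcAGCTTTAAgtaacccg
Malat1, chr19:5799096-5799102: gcttatctaccaAGCTTTAtccacaaaa
Malat1, chr19:5799632-5799638: aacaaaggaagtgGCTTTAAtgaccctg

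Neat1 had 2 miR-9-3p matches in 20771 bases and Snhg11 had 1 in the 5864 bases of its longest transcript. Of long noncoding RNAs near their lengths, 81.8% of 11 and 39.9% of 1644 had at least as many. Miat, Pantr1 and Dlx6os1 had none in any annotated transcript. Sox2ot and Rmst had 1 each, in a transcript other than the longest. These sites are shown for comparison with those of Malat1, on the minus strand for Neat1 and Rmst and the plus strand for Snhg11 and Sox2ot.
Neat1, chr19:5828002-5828008: cctttaacaagaAGCTTTAgatgacgca
Neat1, chr19:5835172-5835179: attctcaattgtAGCTTTAAttggtgtg
Snhg11, chr2:158381666-158381672: tgtcatgacttaAGCTTTAttatgttaa
Sox2ot, chr3:34665259-34665266: agttaggcagggAGCTTTAAtcaagatt
Rmst, chr10:92136183-92136190: cacaaacttctgAGCTTTAAattttgaa

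For miR-9-5p, the other strand of the hairpin, Malat1 had 2 matches and 20.9% of the 925 RNAs near its length had at least as many. A match is a stretch of letters and is no measure of binding. Neither of the RNAs with more than 1 miR-9-3p match in the longest transcript was called lower in miR-9-3p AAV by limma without weights over all 6 libraries, while Neat1 was called lower with array quality weights (-0.86, limma adjusted p = 0.00229), a fit that called 31.7% of all genes lower.

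**Figure D1:**
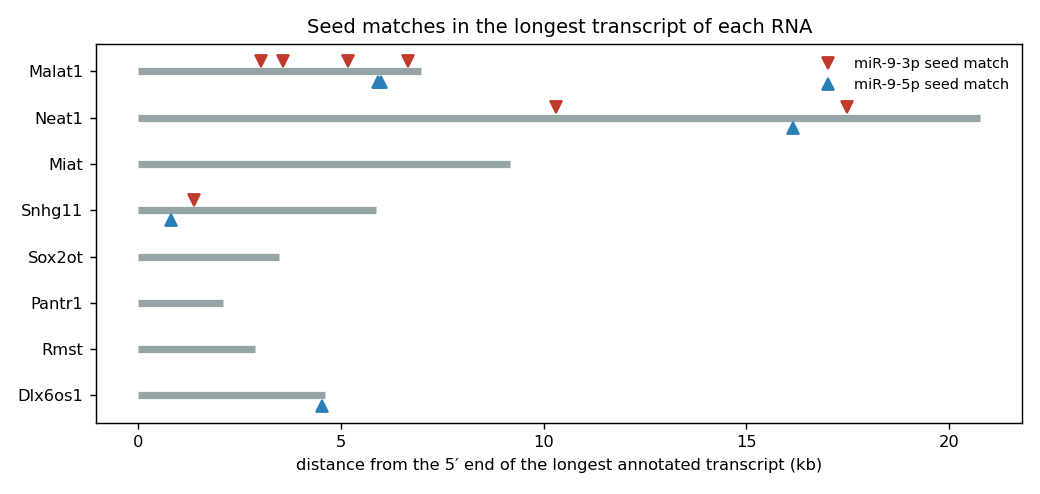
Positions of seed matches of miR-9-3p (downward triangles) and miR-9-5p (upward triangles) along the longest annotated transcript of each RNA (grey bars), in kilobases from the 5′ end. Malat1 carries 4 miR-9-3p matches in 6983 bases and Miat none of either strand.

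The comparison of miR-9-3p AAV with control AAV asks which transcripts differ in neurons given miR-9-3p. Miat rose, with values of 44.2, 42.7 and 50.4 FPKM in miR-9-3p AAV against 30.2, 30.3 and 21.6 FPKM in control AAV. Malat1 and Snhg11 also had higher means in miR-9-3p AAV and Neat1 a lower one, but none of these passed the test. Sox2ot, Pantr1 and Dlx6os1 had differences whose 95% intervals include 0, and Rmst was too low to test. Of the 7 tested RNAs 1 was called higher and 0 lower (limma, Benjamini-Hochberg adjusted p under 0.05 over 14229 genes), where 3.89% of all tested genes were called higher and 2.4% lower. At an unadjusted p under 0.05 there were 3 higher and 1 lower, beside 14% and 12.8% of all genes. limma's voom on recovered reads called 1 higher and 0 lower, beside 3.71% and 2.98% of the 14097 genes it tested. The groups did not overlap for 3 of the 7, Miat, Snhg11 and Neat1, which is close to the 34.9% of all tested genes, so the share itself is no result about these RNAs.

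**Figure D2:**
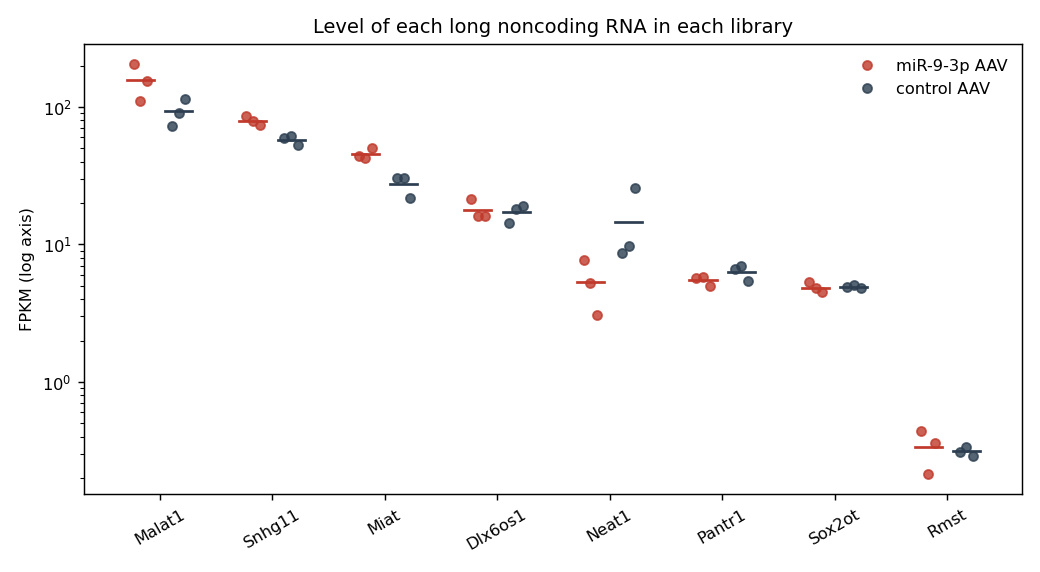
FPKM on a log axis for the 8 RNAs, 1 point per library and 3 per group, with a bar at each group mean. Miat, Snhg11 and Neat1 are the tested RNAs whose groups do not overlap.

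In miR-9-3p AAV the order of mean levels was Malat1 (156 FPKM), Snhg11 (79.7), Miat (45.8), Dlx6os1 (17.8), Pantr1 (5.49), Neat1 (5.34), Sox2ot (4.86) and Rmst (0.337). The control AAV order was Malat1 (92.7 FPKM), Snhg11 (57.9), Miat (27.4), Dlx6os1 (17.1), Neat1 (14.7), Pantr1 (6.33), Sox2ot (4.93) and Rmst (0.313). Neighbours in the order whose libraries overlap were Pantr1, Neat1 and Sox2ot in miR-9-3p AAV, and Dlx6os1 and Neat1 in control AAV. Reads behind these values ranged from 8132 to 24433 per library for Malat1 and from 27 to 56 for Rmst, so the values of Rmst are the least precise.

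Miat (ENSMUSG00000097767, chromosome 5, 112213228 to 112229395, minus strand) averaged 45.8 ± 4.10 FPKM in miR-9-3p AAV and 27.4 ± 5.0 FPKM in control AAV (SD, n = 3 each). The difference of log2(FPKM + 1) was 0.73 (standard error, SE, 0.15) and limma's adjusted p was 0.046. Every miR-9-3p AAV library lay above every control AAV library. Within the set that holds miR-9-3p AAV library 1 the log2 difference was 0.76, and within the other set it was 0.60. The lung level as a covariate gave 0.49 (limma adjusted p = 0.0331). The call was lost when miR-9-3p AAV library 1 was left out (limma adjusted p = 0.104), as it was for library 2 (0.147) or 3 (0.161) and for control AAV library 1 (0.095) or 2 (0.115), and held when control AAV library 3 was left out (0.0452). It also ended with the replicate number as a block (limma adjusted p = 0.26), though the numbers are not known to pair libraries, with no filter (0.1002), with the exon length trend removed (0.0842) and, at the threshold, without the intensity trend. The block fit, and each fit without 1 library in which Miat lost its call, called 0 of all tested genes in either direction. Those losses are therefore not particular to Miat. An antisense gene, Gm26953, covers 24.3% of the exon bases of Miat, and the strand setting is not given in the sources used here. Gm26953 itself stood at 0.463, 0.195 and 0.247 FPKM under miR-9-3p AAV and at 0.0827, 0.0984 and 0.0124 FPKM in control AAV.

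Malat1 (ENSMUSG00000092341, chromosome 19, 5795690 to 5802672, minus strand, 1 exon block of 6983 bases) was the highest of the 8. It stood at 204, 110 and 154 FPKM under miR-9-3p AAV (libraries 1, 2 and 3), against 72.8, 90.6 and 115 FPKM in control AAV libraries 1, 2 and 3. The groups overlap, since miR-9-3p AAV library 2 lies below control AAV library 3. Means were 156 ± 46.7 FPKM in miR-9-3p AAV and 92.7 ± 20.97 FPKM in control AAV (SD, n = 3 each), a log2 difference of 0.73 (SE 0.26, limma adjusted p = 0.142). Library 1 of miR-9-3p AAV and library 3 of control AAV were the highest of their groups both in Malat1 and in lung RNA. With lung level as covariate the log2 difference was 1.18 (SE 0.20, limma adjusted p = 0.0124), a fit in which 12.3% of all genes were called higher and 16.1% lower. Within the sets the differences were 0.99 and 0.83, and with the set as a term the value was 0.91 (limma adjusted p = 0.0256), where 9.91% of genes were called higher. With the highest lung library of each group left out, it was 0.68 (limma adjusted p = 0.0806).

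Snhg11 (ENSMUSG00000044349, chromosome 2, 158375638 to 158386145, plus strand) carries small nucleolar RNAs in its transcription unit. Its values were 86.5, 78.9 and 73.6 FPKM in miR-9-3p AAV and 59.2, 61.8 and 52.6 FPKM in control AAV. All miR-9-3p AAV libraries lay above all control AAV libraries, with means of 79.7 ± 6.45 FPKM in miR-9-3p AAV and 57.9 ± 4.75 FPKM in control AAV (SD, n = 3 each). The log2 difference of 0.45 (SE 0.11) had a limma adjusted p of 0.0588 and did not pass. It passed with lung level as covariate (0.44, limma adjusted p = 0.041) and with the set as a term (0.48, limma adjusted p = 0.0344). Of 7 tested RNAs, 3 were called higher and 0 lower with the lung covariate, Malat1, Miat and Snhg11, beside 12.3% of all genes higher and 16.1% lower. The sum of the 7 neuron markers, of which Tubb3 was the largest part, was also higher in miR-9-3p AAV libraries 2 and 3. Of the 7, 1 was called higher (Map2, log2 difference 0.65) and 0 lower, beside 3.89% and 2.4% of all genes. With the lung covariate the counts were 2 and 1, beside 12.3% and 16.1%. Snap25 and Syn1 were at -0.01 and -0.02 without it. The part of neuron RNA in the levels of Miat and Snhg11 was not tested.

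Neat1 (ENSMUSG00000092274, chromosome 19, 5824708 to 5845478, minus strand) had the lowest difference of the 8. It stood at 7.67, 5.28 and 3.08 FPKM under miR-9-3p AAV (libraries 1, 2 and 3), against 8.66, 9.67 and 25.6 FPKM in control AAV libraries 1, 2 and 3. The groups do not overlap, and control AAV library 3 stands far above the other five. Means were 5.34 ± 2.29 FPKM in miR-9-3p AAV and 14.7 ± 9.53 FPKM in control AAV (SD, n = 3 each), a log2 difference of -1.21 (SE 0.45, limma adjusted p = 0.152). The libraries highest and lowest in Neat1 were also the highest and lowest in lung level. With lung level as covariate the log2 difference was -0.28 (SE 0.19, limma adjusted p = 0.32), with a slope of 0.63 per log2 unit of lung level. Without control AAV library 3 the value was -0.74 (limma adjusted p = 0.185). Leaving out the library of most lung RNA in each group gave -1.003 (limma adjusted p = 0.0467), a fit with 5.53% of genes called higher and 5.99% lower. The libraries kept had lung levels of 1.17 and 1 in miR-9-3p AAV and 2.35 and 3.21 in control AAV, so the groups still differed in it. Within the sets the Neat1 difference was -0.96 and -0.93. Lung level was not level there either. It was 3.2 against 3.21 and 10.8 in the set with miR-9-3p AAV library 1, and 1.17 and 1 against 2.35 in the other. The 10 alveolar type 2 markers summed to between 628 and 2038 FPKM in miR-9-3p AAV and between 1331 and 6800 FPKM in control AAV. The 4 endothelial markers summed to between 12.1 and 43.7 FPKM in miR-9-3p AAV and between 39.3 and 168 FPKM in control AAV, with no marker of either list at 0.

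**Figure D3:**
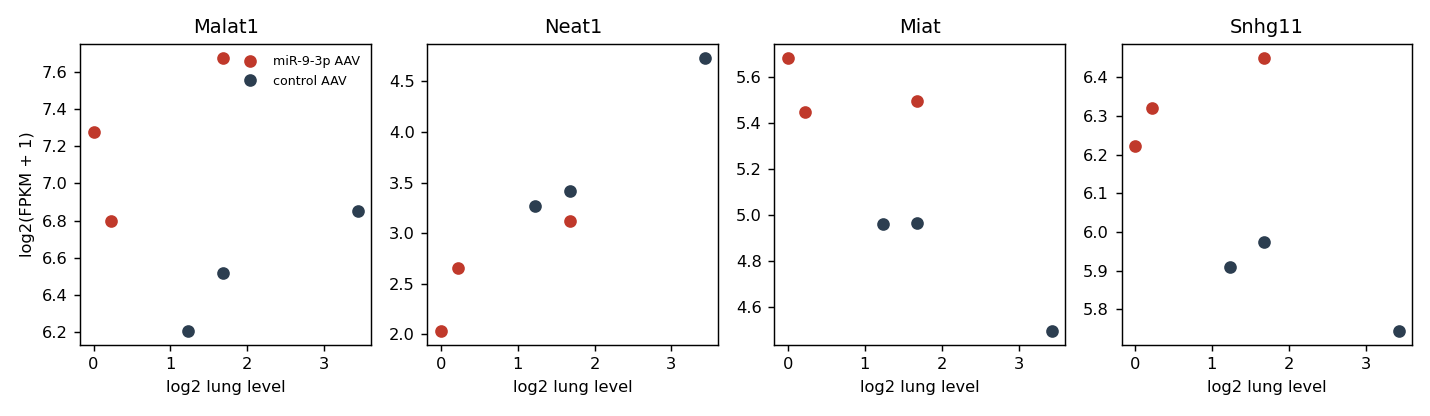
Level of Malat1, Neat1, Miat and Snhg11, as log2(FPKM + 1), against the log2 lung level of each library, with 3 points per group. Neat1 is highest in control AAV library 3, which has a lung level 10.8 times the lowest, while Miat and Snhg11 are lowest there.

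The ratio of Neat1 to Malat1 within a library is free of the library's scale. It was 0.0376, 0.0478 and 0.0200 in miR-9-3p AAV and 0.119, 0.107 and 0.224 in control AAV, a log2 difference of -2.10. The exact permutation p was 0.1 (two-sided), the smallest that 3 against 3 libraries can give, and 0.4 adjusted over a family of 8 comparisons. Malat1 over Miat had a log2 difference of -0.02 (exact permutation p = 1, 1 adjusted), and Miat over Snhg11 of 0.29 (exact permutation p = 0.1, 0.4 adjusted), or 0.17 without miR-9-3p AAV library 3. The lung level itself had a log2 difference of -1.48 (exact permutation p = 0.2, 0.533 adjusted), or -0.82 without control AAV library 3.

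Dlx6os1 (ENSMUSG00000090063, chromosome 6, 6820189 to 6871592, minus strand), also known as Evf2, is transcribed against Dlx6 in the ventral forebrain, where inhibitory neurons arise. It stood at 21.3, 15.98 and 16.2 FPKM under miR-9-3p AAV and at 14.4, 18.1 and 18.9 FPKM in control AAV. The groups overlap, with a log2 difference of 0.05 (95% interval -0.32 to 0.42, limma adjusted p = 0.859). Adding the lung covariate gave 0.31 (limma adjusted p = 0.0955), and it was -0.08 without miR-9-3p AAV library 1. Dlx6, the gene opposite, had 3.41, 3.8 and 4.02 FPKM in miR-9-3p AAV and 4.71, 4.98 and 3.30 FPKM in control AAV. The ratio of Dlx6os1 to Dlx6 had a log2 difference of 0.24 (exact permutation p = 0.5, 0.8 adjusted). It was 0.044 without miR-9-3p AAV library 1 and 0.505 without control AAV library 3. That of Dlx6os1 to Dlx5 was 0.24 (exact permutation p = 0.6, 0.8 adjusted). None of the exon bases of Dlx6os1 lie in exons of Dlx6. Of 9 inhibitory neuron markers, 0 were called in either direction by limma or by voom, and 0 had an unadjusted p under 0.05. Over all genes limma called 3.89% higher and 2.4% lower, and voom 3.71% and 2.98%. At an unadjusted p under 0.05 the shares were 14% and 12.8%. With the lung covariate 0 of the 9 were called higher and 4 lower, Slc32a1 (-0.81), Dlx2 (-0.82), Dlx5 (-0.76) and Dlx6 (-0.41, limma adjusted p = 0.0404), where Dlx6os1 was at 0.31. That fit called 12.3% of all genes higher and 16.1% lower, so lower calls were common in it.

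Sox2ot (ENSMUSG00000105265, chromosome 3, 34104270 to 34682619, plus strand) spans Sox2, a transcription factor gene of neural progenitors and glia, with which it shares no exon bases. The values were 5.29, 4.79 and 4.49 FPKM in miR-9-3p AAV and 4.92, 5.03 and 4.83 FPKM in control AAV. This was the steadiest of the 8: the log2 difference was -0.02 (95% interval -0.23 to 0.19, limma adjusted p = 0.908), with an SD of log2(FPKM + 1) of 0.0993 in miR-9-3p AAV and 0.0248 in control AAV. Sox2 stood at 54.0, 66.5 and 76.1 FPKM under miR-9-3p AAV and at 79.2, 71.2 and 61.5 FPKM in control AAV. The ratio of Sox2ot to Sox2 had a log2 difference of 0.09 (exact permutation p = 0.8, 0.914 adjusted).

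Pantr1 (ENSMUSG00000060424, chromosome 1, 42590782 to 42694842, minus strand) lies 926 bases from Pou3f3, a POU-domain transcription factor gene of upper-layer cortical neurons. Its values were 5.69, 5.82 and 4.96 FPKM in miR-9-3p AAV and 6.57, 7.003 and 5.42 FPKM in control AAV. The groups overlap, and the log2 difference was -0.17 (95% interval -0.45 to 0.10, limma adjusted p = 0.364). Leaving out 1 library gave values from -0.265 (without control AAV library 3) to -0.106 (without control AAV library 2). The ratio of Pantr1 to Pou3f3 had a log2 difference of -0.33 (exact permutation p = 0.3, 0.6 adjusted). It was -0.50 without miR-9-3p AAV library 1 and -0.136 without library 3.

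Rmst (ENSMUSG00000112117, chromosome 10, 92071037 to 92165170, minus strand), an RNA known in human cells to bind SOX2, was below 1 FPKM in every library. It stood at 0.439, 0.215 and 0.357 FPKM under miR-9-3p AAV, from 56, 27 and 45 reads, and at 0.312, 0.338 and 0.288 FPKM in control AAV, from 37, 45 and 38 reads. The groups overlap, and no test was made because it stayed under the filter of 1 FPKM. Another gene on the opposite strand, Gm26700, covers 26.3% of the exon bases of Rmst.

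**Figure D4:**
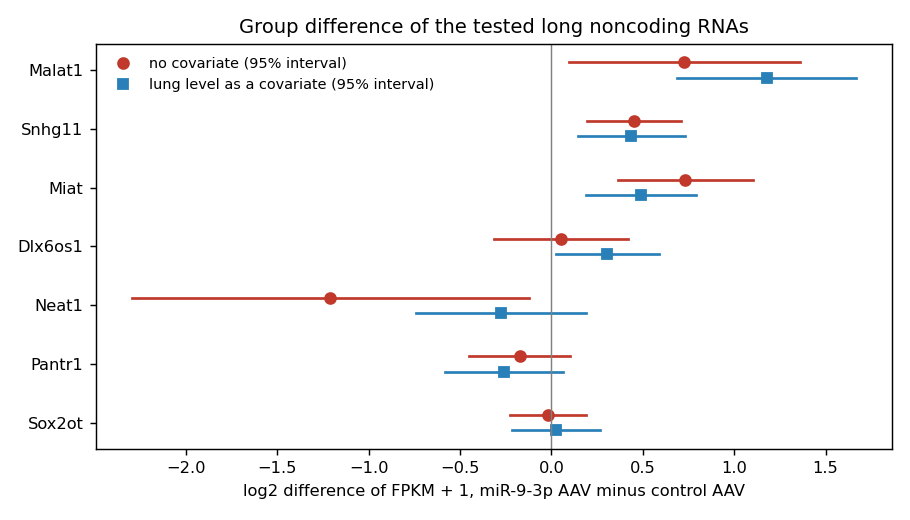
Difference of mean log2(FPKM + 1), miR-9-3p AAV minus control AAV, for the 7 tested RNAs, with 95% intervals from limma, without a covariate (circles) and with lung level as covariate (squares). Neat1 moves from -1.21 to -0.28 and Malat1 from 0.73 to 1.18 when the covariate is added.

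Promoters of 4 of the 8 were listed by RefSeq (GRCm38.p6), each 250 bases before to 50 after a start. Those of Malat1, Miat and Snhg11, the RNAs called higher with the lung covariate, are shown, and both windows of Dlx6os1 are described by their matches. The Miat window lies inside the GENCODE gene and does not reach its start at 112229395. Both Dlx6os1 windows also lie inside the GENCODE gene, short of its start at 6871592. Matches or their absence in these windows therefore do not describe the GENCODE starts of Miat and Dlx6os1. Both strands were searched for the cyclic AMP response element core TGACG, the TATA box TATAAA and the CCAAT box CCAAT, which are in capitals, and for the GC box GGGCGG, the E-box CANNTG and the RE1 core CAGCACC. No matches overlapped each other.
Malat1, chr19:5802623-5802922, minus strand: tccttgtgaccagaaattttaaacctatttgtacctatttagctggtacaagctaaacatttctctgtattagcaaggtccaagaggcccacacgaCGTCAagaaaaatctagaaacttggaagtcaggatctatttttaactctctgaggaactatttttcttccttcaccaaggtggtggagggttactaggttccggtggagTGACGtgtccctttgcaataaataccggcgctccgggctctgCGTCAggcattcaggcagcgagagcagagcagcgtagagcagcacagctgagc
Miat, chr5:112228899-112229198, minus strand: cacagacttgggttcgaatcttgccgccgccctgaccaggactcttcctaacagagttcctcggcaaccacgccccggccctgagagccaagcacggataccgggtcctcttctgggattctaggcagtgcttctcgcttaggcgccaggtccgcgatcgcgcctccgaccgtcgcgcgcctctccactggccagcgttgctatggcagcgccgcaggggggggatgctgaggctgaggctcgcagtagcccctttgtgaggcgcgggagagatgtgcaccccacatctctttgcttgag
Snhg11, chr2:158375463-158375762, plus strand: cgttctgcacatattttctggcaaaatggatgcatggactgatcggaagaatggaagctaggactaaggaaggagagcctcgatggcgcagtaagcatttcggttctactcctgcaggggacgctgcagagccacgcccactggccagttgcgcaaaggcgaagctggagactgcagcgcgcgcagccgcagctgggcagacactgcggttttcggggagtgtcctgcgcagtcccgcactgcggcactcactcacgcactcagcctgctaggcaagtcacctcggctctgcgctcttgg

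The Malat1 window held 3 copies of TGACG, counting both strands, the windows of Miat and Snhg11 held none, and 1 of the 2 Dlx6os1 windows held 1. Of 32851 RefSeq promoter windows 20.8% held at least 1, with a mean of 0.27 per window. The share with 3 or more was not computed. Neither the TATA box nor the CCAAT box was in the windows of Malat1, Miat and Snhg11. For Dlx6os1 the window with the response element core also held 2 copies of the CCAAT box, and its other window held 2 matches to the TATA box. Of all windows 13.6% held a TATA box and 37.4% a CCAAT box. GGGCGG was found in the window of Miat and in none of the other members' windows, and in 35.7% of all windows. CANNTG was found 1 time in the window of Malat1, 2 times in that of Snhg11 and 1 time in each window of Dlx6os1, and in 72.3% of all windows. CAGCACC was in none of these windows and in 7.14% of all windows.

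Among all 873 long noncoding genes tested, 55 were called higher and 12 lower, with a median log2 difference of 0.12. Among 12277 protein-coding genes, 465 were higher and 313 lower, with a median of -0.03, and the median over all genes tested was -0.02. Over all genes tested 3.89% were called higher and 2.4% lower. With lung level as covariate the medians were 0.15 for long noncoding, -0.06 for protein-coding and -0.05 for all genes. Of the 873, 93.1% had a difference at or below that of Miat, 92.7% at or below that of Malat1 and 0.573% at or below that of Neat1.

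**Figure D5:**
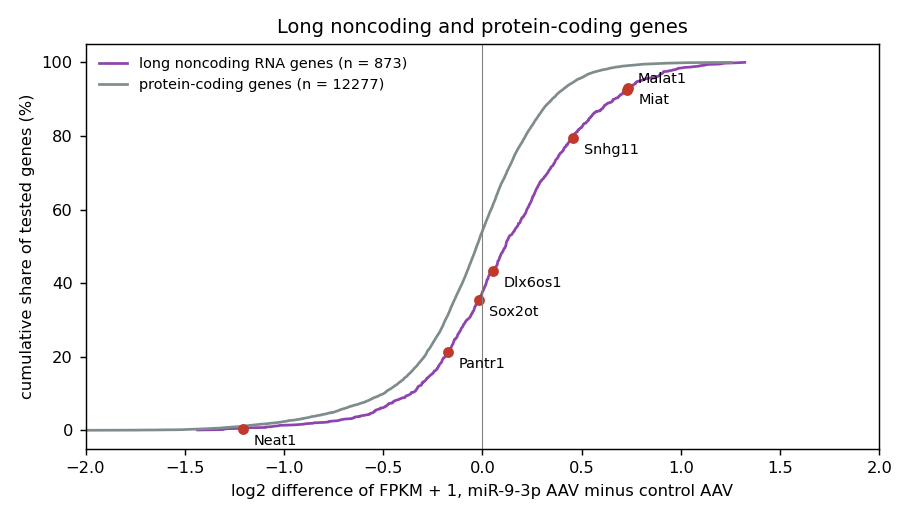
Cumulative share of tested genes by difference of mean log2(FPKM + 1), miR-9-3p AAV minus control AAV, for 873 long noncoding and 12277 protein-coding genes. The 7 tested RNAs, Snhg11 included although annotated as coding, are marked at their differences on the long noncoding curve, with Miat and Malat1 near its upper end and Neat1 at its lower end.

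Other long noncoding RNAs of the brain, from a list of 49, gave 26 tested genes. Of these, 3 were higher and 0 lower by limma, beside 3.89% and 2.4% of all genes. By voom 2 were higher and 1 lower, beside 3.71% and 2.98%. At an unadjusted p under 0.05 there were 6 and 3, beside 14% and 12.8%. C130071C03Rik, whose gene spans the Mir9-2 locus, averaged 38.5 ± 1.79 FPKM in miR-9-3p AAV and 20.1 ± 1.41 FPKM in control AAV (SD, n = 3 each). Its log2 difference of 0.91 had a limma adjusted p of 0.017. Sox1ot, which overlaps the transcription factor gene Sox1, averaged 9.85 ± 0.572 FPKM in miR-9-3p AAV and 7.31 ± 0.138 FPKM in control AAV (log2 difference 0.38, limma adjusted p = 0.0439). Meg3, an imprinted RNA, had a log2 difference of 0.66. The median of the list was -0.01. Of 14 tested host genes of small nucleolar RNAs other than Snhg11, 0 were called in either direction by limma or voom, with 1 higher and 3 lower at an unadjusted p under 0.05 and a median of -0.16. Epb41l4aos stood at -0.58 (limma adjusted p = 0.0851) and Snhg8 at -0.54 (0.0882), both opposite in sign to Snhg11. With the lung covariate 12.3% of all genes were called higher and 16.1% lower. In that fit 6 of the 26 other brain RNAs were higher and 5 lower, and 1 of the 14 host genes was higher and 3 lower.

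Proteins of the bodies that Neat1 and Malat1 belong to were read from the same fit. Their counts stand beside 3.89% of all genes called higher and 2.4% lower by limma, and 3.71% and 2.98% by voom. At an unadjusted p under 0.05 the shares were 14% and 12.8%. Of 25 tested paraspeckle genes 1 was higher and 0 lower, the same counts as by voom, with 6 and 0 at an unadjusted p under 0.05 and a median log2 difference of 0.13. That gene was Sfpq, whose protein binds Neat1 and is needed to build paraspeckles. It stood at 84.0, 91.1 and 91.9 FPKM under miR-9-3p AAV and at 60.9, 62.9 and 57.9 FPKM in control AAV, a log2 difference of 0.55 (SE 0.09, limma adjusted p = 0.0282). Of 23 nuclear speckle genes, 0 were called by limma or voom and 1 was higher at an unadjusted p under 0.05, with a median of 0.02. That gene was Son, a core speckle protein, at 40.2 ± 2.68 FPKM in miR-9-3p AAV and 27.6 ± 4.99 FPKM in control AAV (SD, n = 3 each; log2 difference 0.54, limma adjusted p = 0.0738). The splicing kinase gene Clk1 was at -0.43 (limma adjusted p = 0.207). Of 24 genes for binding partners and RNA processing factors, 2 were higher and 0 lower, the same counts as by voom, with 5 and 2 at an unadjusted p under 0.05 and a median of 0.17. They were Dicer1 (log2 difference 0.63, limma adjusted p = 0.0299) and Ago2 (0.49, 0.026), which cut and load microRNAs. With the lung covariate 7 paraspeckle genes were higher and 0 lower, 3 and 1 of the nuclear speckle genes, and 6 and 2 of the partners and processing factors. That fit called 12.3% of all genes higher and 16.1% lower.

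Of 28 listed coding genes within 500000 bases of these RNAs, 23 were tested. By limma 0 were higher and 1 lower, beside 3.89% and 2.4% of all genes, and voom gave the same counts. At an unadjusted p under 0.05 there were 2 and 2, beside 14% and 12.8%. The median was -0.11. With the lung covariate 1 was higher and 9 lower, beside 12.3% and 16.1% of all genes. Frmd8, 4224 bases from Neat1, fell to 4.96, 6.40 and 5.40 FPKM in miR-9-3p AAV, against 9.85, 9.48 and 10.4 FPKM in control AAV. The log2 difference was -0.73 (SE 0.10, limma adjusted p = 0.0245) and stood at -0.76 after adding the lung covariate, while Neat1 beside it did not pass.

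The genes whose profile over the 6 libraries was closest to each RNA were found by the root mean square difference of centred log2(FPKM + 1), among 12266 tested genes. Neat1 was closest to H2-Q4, an MHC class I gene, and Plvap, a gene of fenestrated endothelium, at distances of 0.066 and 0.0919, where the spread of Neat1 itself was 0.825. Miat was closest to Efr3b and Hs3st4 (0.0429 and 0.0611, own spread 0.405) and Snhg11 to Nkain2 and Fbxo7 (0.0193 and 0.0324, own spread 0.246). For Malat1 the closest were the small RNA genes Mir3473g and Snord89, at 0.148 and 0.167 against an own spread of 0.481. Sox2ot was closest to Hspa5 and Ndufs1, Pantr1 to Tmem126b and Prpf6, Dlx6os1 to Rb1cc1 and Ppig, and Rmst to Hnrnpa2b1 and Orc6, at distances between 0.0145 and 0.041. Own spreads were small too, at 0.0599 for Sox2ot, 0.142 for Pantr1, 0.174 for Dlx6os1 and 0.0744 for Rmst. The profile of Rmst rests on few reads.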

How the data were processed

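RNA of 6 libraries was measured by sequencing. Per the file headers, the deposited values are FPKM, in a single table with a column for each library. The submitters' processing notes list HISAT2, Cufflinks 2.2.1 and mm10 without saying what each was used for. Annotation, strand setting and filters are not given in the sources used here.

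Gene symbols, coordinates and lengths of exons were read from GENCODE M21 (GRCm38, the same assembly as mm10), which matched 52135 of 55416 identifiers. Low values were whole multiples of a step set by exon length. Dividing by it gave whole reads, within 0.01, for 98.05% to 98.14% of values above 0, and depths of 16001205 to 17936453 reads per library. Reads of Snhg11 did not come out whole, so none are given for it. Reads that overlapping genes share may have been split or dropped. No library pair agreed within sampling noise.

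limma 3.58.1 in R 4.3.3 (empirical Bayes with intensity trend, no covariates) was fitted to log2(FPKM + 1), which understates changes of low genes, on the 14229 genes that reached 1 FPKM in 3 or more libraries, with Benjamini-Hochberg adjustment over all of them. The step was run on simulated data in which all genes had the same spread and no lung RNA was included. That run therefore does not show how the fit performs on these libraries. Ratios were tested by exact permutation. Named genes are all 8 RNAs, up to 4 called genes per list, by size of change, or the 2 of lowest p where none was called, and the 2 nearest profiles. The RNAs, lists, tests and alternatives were chosen with earlier results of these data known.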

Additional observations from a re-analysis of the deposited data

How the results depend on the processing

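The count of RNAs called higher, 1 of 7, was 0 with no filter, no intensity trend, the replicate block or the exon length trend removed. It was 3 with array quality weights, the lung level as a covariate or the lung set as a term. Those fits called higher 4450 of 14229 genes, 12.3% and 9.91% of all genes, in that order. The count ranged from 0 to 1 over fits that left out 1 library each. Where it was 0 in those fits, 0 of all tested genes were called in either direction. The count called lower, 0, was 3 with array quality weights (Neat1 at -0.855, Pantr1 at -0.264 and Dlx6os1), a step that stopped before convergence. It was 1 (Neat1) when each group's highest lung library was left out. These fits called 31.7% and 5.99% of all genes lower. Same-numbered libraries had correlations of deviations from the group mean of -0.649, 0.111 and -0.535. Deviations within a group sum to 0, which ties the correlations together, so they cannot settle whether the numbers pair libraries. The highest, 0.621, joined miR-9-3p AAV library 1 and control AAV library 3, each the highest of its group in lung level. Sox2ot changed sign with quantile normalization (0.016), the lung covariate (0.026), the lung set (0.0073) and without miR-9-3p AAV library 3 (0.026), ranged from -0.0723 to 0.026 without 1 library each, and fell out under the filter of 5 FPKM. Dlx6os1 changed sign with array weights (-0.14), without the highest lung libraries (-0.0042) and without library 1 of miR-9-3p AAV (-0.076) or of control AAV (-0.062).

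The log2 ratio of Malat1 to Miat changed sign without miR-9-3p AAV library 2 (0.16) or 3 (0.04), control AAV library 3 (0.31) or the highest lung libraries (0.068). That of Sox2ot to Sox2 did so without miR-9-3p AAV library 1 (-0.11) or the highest lung libraries (-0.024), and that of Dlx6os1 to Dlx5 without library 1 of miR-9-3p AAV (-0.14) or control AAV (-0.041). Without 1 library each, the lowest Malat1 to Miat value was -0.26, the highest Sox2ot to Sox2 value 0.26 and the highest Dlx6os1 to Dlx5 value 0.61.

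List medians moved as follows: other brain long noncoding RNAs to 0.13 at a filter of 5 FPKM, snoRNA hosts to -0.22 with voom, -4.9e-05 with the lung covariate and -0.073 with the length trend removed, paraspeckle genes to 0.17 with quantile normalization, 0.085 with array weights and 0.050 with the length trend removed, coding neighbours to -0.23 with the lung covariate. Partners and processing factors went to 0.11 with array weights or the length trend removed, 0.062 with the lung covariate, 0.095 without the highest lung libraries and 0.12 with the lung set. Over fits without 1 library each the medians ran from -0.038 to 0.11 for other brain long noncoding RNAs, from -0.19 to -0.091 for snoRNA host genes, from 0.09 to 0.17 for paraspeckle proteins, from 0.0078 to 0.041 for nuclear speckle proteins, from 0.086 to 0.196 for partners and processing factors and from -0.202 to -0.0037 for coding neighbours of these RNAs. The cause was not tested.

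Over all genes, 554 were higher and 341 lower, against 0 and 0 with the replicate block or without any 1 library other than control AAV library 3 (460 and 272), and 109 and 67 with no filter. Counts rose to 4450 and 4516 with array weights and to 1757 and 2291 with the lung covariate. The share of calls that were higher was 61.9%, and 69.2% with quantile normalization.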
